A study of Mus musculus with 6 samples.

Results

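The set holds 10 cartilage genes given by name: the transcription factors Sox9, Sox5 and Sox6, and the non-collagen matrix genes Acan, Hapln1, Comp, Matn1, Matn3, Cnmd and Ucma. They were chosen by symbol, and 9 of the 10 had a row among the 23170 genes of the authors' deposited table, all but Matn1, whose level is not reported here. RNA was taken from subchondral bone of the condyle of the mandible, the bone under the joint surface of the lower jaw. In 3 libraries wild type mice had undergone partial discectomy, removal of part of the disc of the temporomandibular joint, and in 3 libraries a sham operation. Surgery was on 1 side and the operated joint was sampled. The age label of both groups reads P6w+PO2w. The sample descriptions end in LPD after partial discectomy and in Rctrl for sham and are not explained, so whatever else these letters stand for cannot be told apart from the operation. They also carry a number, 2, 4 and 6 after partial discectomy and 1, 5 and 6 in sham, and what it means that 6 occurs in both groups is not given. Nothing in the labels tells whether each library is a different mouse, and p-values may then measure technical spread.

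Sox9 is the transcription factor that commits cells to cartilage and keeps chondrocytes in that state. Sox5 and Sox6 are close relatives of each other that bind DNA beside it and strengthen its action on cartilage genes. The matrix genes build the cartilage that resists pressure. Aggrecan, the product of Acan, is a large proteoglycan that binds to hyaluronan and is held there by the link protein Hapln1. Comp and the matrilins tie collagen fibrils to other matrix molecules, and Cnmd and Ucma encode smaller secreted products of chondrocytes. The mandibular condyle is capped by fibrocartilage that lies directly on the subchondral bone.

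The levels below are group means in the authors' deposited table, in a normalized but unnamed unit. The smallest mean is 1, taken here as an offset added to every library and called the floor. A ratio divides the mean after partial discectomy by that of sham, and an adjusted p under 0.05 counts as a call. The adjusted p is the authors' Benjamini-Hochberg value over all 23170 genes, from a model the table leaves unnamed. No values of single libraries were analysed here. For each gene the authors' deposited table also gives the highest value and the geometric mean over the 6 libraries. Together with both group means these leave only a limited range for each library, which is given below as the least and the most that its value can be. For some genes they also fix the group that the highest library belongs to.

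Markers of bone and of cartilage were both present. Col1a1, the main collagen of bone, had means of 34180 after partial discectomy and 27783 in sham, and Dmp1 of osteocytes averaged 544 and 300 in the same order, per the authors' deposited table. The level of 8 chondrocyte markers, summed above the floor, was 6101 after partial discectomy and 5122 in sham. Of these markers 5 belong to the set itself (Sox9, Acan, Comp, Matn3 and Hapln1), 4 of the 8 had ratios below 1, and Col2a1 and Col11a1 hold most of the difference between the sums. Of 8 markers of fibrochondrocytes and tendon 4 had ratios below 1, with sums of 3434 after partial discectomy and 4217 in sham. Postn (1375 and 2481) and Fmod (1776 and 1310) moved these sums most, in opposite directions. For 6 hypertrophic chondrocyte markers the sums were 4503 and 3195 in the same order, with 2 ratios below 1. For 8 osteoblast markers they were 40129 and 31431, most of it Col1a1, with 1 ratio below 1. None of these markers was called. The sum for 5 markers of osteocytes was 951 after partial discectomy and 537 in sham, with 1 ratio below 1 (Pdpn, 0.836), and none was called. For Dmp1 the ratio was 1.81 by the authors' deposited table (95% limits 0.768 to 4.28). Osteoclast markers had ratios above 1 for 6 of 6 genes, with sums of 1931 after partial discectomy and 1022 in sham, and none was called. Of 8 neutrophil markers 6 rose by the authors' deposited adjusted p, and their summed level was 1222 after partial discectomy and 94.2 in sham. All 8 erythroid markers rose, with sums of 227 and 11.9 in the same order. No marker of skeletal muscle was called, and all 8 had ratios below 1, against 37.3% of all genes, with sums of 832 and 1888. Ttn, at 693 after partial discectomy and 1685 in sham, holds most of that difference. For all but Mylpf the highest library had to be a sham library. Without it the ratio was 1.32 for Acta1, 1.08 for Myh4, 1.40 for Myh1, 1.28 for Tnnt3 and 1.54 for Ckm. It stayed below 1 for Actn3 (0.851) and Ttn (0.839). Of 6 Schwann cell and myelin markers 1 was called, Mbp, a myelin protein, for which the authors' deposited table has means of 12.2 after partial discectomy and 4.91 in sham (ratio 2.49, adjusted p = 0.0223). The other 5 included 4 with ratios below 1. Of 6 markers of salivary gland and epithelium 5 had a row, and none was called. All were low: Krt5 averaged 1.10 after partial discectomy and 1.11 in sham, near the floor, in the authors' deposited table. Amy1, the highest of them, averaged 2.50 and 2.41 in the same order. The part of these cell types in the results below was not tested. In bulk tissue, fewer cells of a type and less RNA per cell cannot be told apart.

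No gene of the set passed the threshold in either direction. By the authors' deposited adjusted p 0 of 9 were called, where 2.38% of all genes were and 0.104% were called lower, and the authors' table was the only test run. At an unadjusted p under 0.05 there was 1 gene, Sox5, where 14.2% of all genes lay below that p and 3.31% did so with a ratio below 1. The 95% limits lay below 1 for the same gene, as they did for 3.59% of all genes. After Sox5 the smallest adjusted p was 0.639. Ratios were below 1 for 7 of the 9 genes, against 37.3% of all genes. Their median log2 ratio was -0.16, that of all genes 0.08. The 9 genes made up 0.357% of the summed signal above the floor after partial discectomy and 0.417% in sham. Their ratios were loosely bounded: the upper 95% limit was a median of 4.11 times the lower one, against 1.86 times for all genes.

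**Figure D1:**
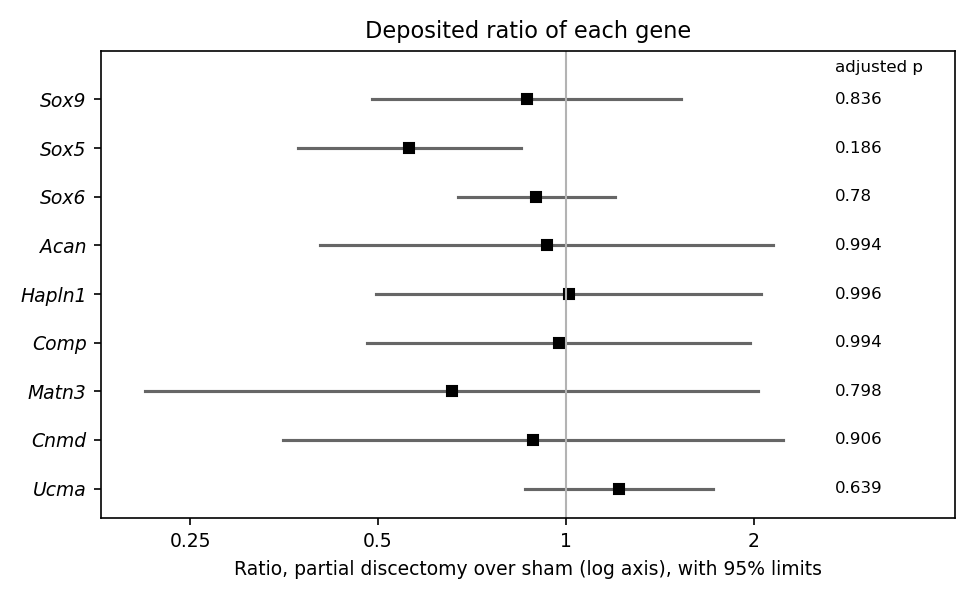
Ratio of the group means, partial discectomy over sham, for each of the 9 genes on a log axis (squares), with the 95% limits (lines) and the adjusted p, all from the authors' deposited table. The limits of Sox5, 0.373 to 0.846, are the only ones of the 9 that lie wholly on one side of 1.

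Sox9 (chromosome 11, 112782224 to 112787760, plus strand, mm10) averaged 73.5 after partial discectomy and 85.0 in sham in the authors' deposited table. The authors' deposited table gave 95% limits of 0.489 and 1.53 for its ratio of 0.865 (adjusted p = 0.836). The highest library stood at 127 and had to be a sham library. The other sham libraries lay between 37.7 and 90.3. All 3 partial discectomy libraries lay between 40.9 and 112. The groups therefore overlapped, as they did for 61.5% of all genes, and the other sham libraries had a mean of 64.0, under the partial discectomy mean.

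Sox5 (chromosome 6, 143828425 to 144781977, minus strand) had the lowest ratio of the set. Its mean was 41.0 after partial discectomy and 72.9 in sham, and the ratio was 0.561 in the authors' deposited table with 95% limits of 0.373 and 0.846 (unadjusted p = 0.0124, adjusted p = 0.186). It was not called by the adjusted p. All 3 partial discectomy libraries lay between 30.0 and 53.0. Of the sham libraries the lowest lay between 45.0 and 59.4, the middle one between 59.4 and 73.7, and the highest at 100. The summaries do not settle whether the groups overlapped. If they did, the lowest sham library stood between 46.9 and 50.2 and the highest partial discectomy library exceeded it by at most 0.301. Over all genes, 13.6% had groups that could not overlap and 24.8% were undecided in the same way. Without the high sham library the ratio of Sox5 was 0.690.

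Genes that lie within the Sox5 locus in the GENCODE M21 annotation also had ratios below 1, as did 37.3% of all genes. They were looked up by position, after the value of Sox5 was known. Of 7 such genes 4 had a row in the authors' deposited table, and none was called. Sox5os1, an antisense RNA whose exons overlap those of Sox5, had means of 1.91 after partial discectomy and 4.33 in sham, giving a ratio of 0.442 in the authors' deposited table (unadjusted p = 0.00760, adjusted p = 0.143). Gm44068, an unconfirmed transcript inside Sox5 on the same strand, had means of 5.32 after partial discectomy and 11.7 in sham, giving a ratio of 0.453 (unadjusted p = 0.00921, adjusted p = 0.159) by the authors' deposited table. Sox5it, which lies in an intron, had a ratio of 0.754 and the antisense gene Sox5os3 one of 0.804 in the authors' deposited table. Strand use in counting is not given in the sources used here, so reads of Sox5 and of its antisense partner cannot be told apart. Gm44068 and Sox5it lie on the same strand as Sox5, so strand would not separate their reads from Sox5 reads there.

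Sox6 (chromosome 7, 115470872 to 116038796, minus strand) had the tightest limits of the set relative to its ratio. The authors' deposited table gives means of 58.8 after partial discectomy and 65.6 in sham, which is a ratio of 0.897 (95% limits 0.671 to 1.20, adjusted p = 0.780). Its 3 partial discectomy libraries lay between 56.0 and 61.6. The lower pair of sham libraries lay between 56.2 and 61.0, and the highest sham library stood at 79.4. Apart from that library the summaries allow nearly the same range for both groups, and without it the ratio was 1.00. The antisense genes Sox6os and Gm45025 in the Sox6 locus had ratios of 0.907 and 0.850 by the authors' deposited table, with unadjusted p of 0.228 and 0.321. The difference between the ratios of Sox5 and Sox6 was not tested.

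Of 16 other Sox genes listed, 9 had a row, and none had an unadjusted p under 0.05. Sox13, the third gene of the Sox5 and Sox6 group, averaged 7.66 after partial discectomy and 7.20 in sham in the authors' deposited table (ratio 1.06, 95% limits 0.764 to 1.48). Sox8, a relative of Sox9, had means of 3.94 and 4.53 in the same order in the authors' deposited table (ratio 0.869). Sox10, another relative of Sox9 that marks Schwann cells, was near the floor in the authors' deposited table, at 1.19 after partial discectomy and 1.28 in sham. Sox4 and Sox18, which is an endothelial factor, had ratios of 1.26 and 1.55 by the authors' deposited table, with adjusted p of 0.508 and 0.421.

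**Figure D2:**
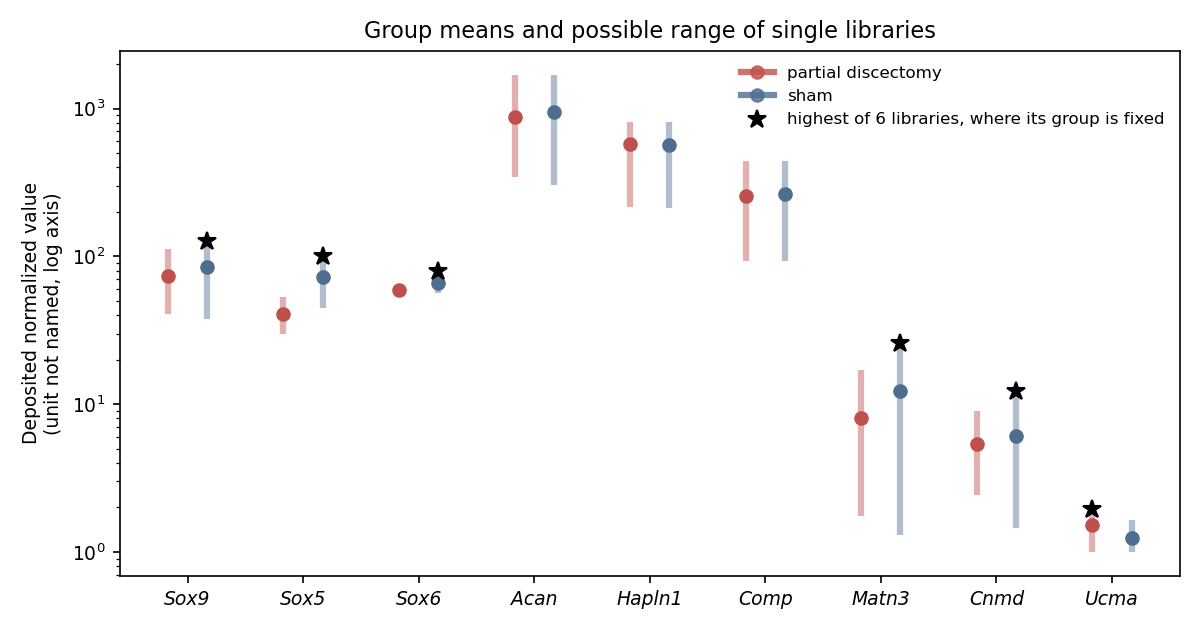
Levels of the 9 genes in the deposited normalized unit on a log axis, partial discectomy beside sham: group means (circles), the range within which the 3 libraries of a group must lie (bars), and the highest of the 6 libraries where the summaries fix its group (stars). Stars stand on sham for Sox9, Sox5, Sox6, Matn3 and Cnmd and on partial discectomy for Ucma, and the bars of the 2 groups share part of their range for every gene.

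Acan and Hapln1, which together form the aggrecan aggregate, had close group means and wide limits. Acan (chromosome 7, 79053483 to 79115099, plus strand) averaged 878 after partial discectomy and 943 in sham in the authors' deposited table. Its ratio of 0.931 had 95% limits from 0.404 to 2.15, which hold a change of more than 2-fold in either direction. Libraries ranged from at least 341 to at most 1697 after partial discectomy and from at least 304 to at most 1697 in sham, and the group of the highest library, at 1697, is not fixed. The groups overlapped in every arrangement that gives the deposited summaries. Hapln1 (chromosome 13, 89539796 to 89611652, plus strand) averaged 572 after partial discectomy and 567 in sham, which is a ratio of 1.01 in the authors' deposited table (95% limits 0.496 to 2.06, adjusted p = 0.996). Relative to the median over all genes its log2 ratio was -0.066, so no direction can be given. Its highest library stood at 814 and its groups overlapped too.

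The sugar chains of aggrecan are chondroitin sulfate, and 24 genes of its synthesis and sulfation had a row. None was called, and 2 had an unadjusted p under 0.05, both with ratios above 1, where 10.9% of all genes did so. B3gat3, which completes the linker that joins the chain to the protein, averaged 18.8 after partial discectomy and 13.7 in sham in the authors' deposited table (ratio 1.37, adjusted p = 0.339). Chst15, a sulfotransferase, stood at 32.1 and 21.7 in the same order in the authors' deposited table (ratio 1.48, unadjusted p = 0.0429, adjusted p = 0.328). Its 95% limits, 0.966 to 2.26, include 1 all the same. Chst11, which sulfates chondroitin in cartilage, had a ratio of 1.14 (0.635 to 2.04), and the phosphatase Impad1 had 0.916 by the authors' deposited table. The median log2 ratio of the list was 0.11, close to that of all genes.

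Comp (chromosome 8, 70373558 to 70382066, plus strand), a pentamer that binds collagen fibrils, averaged 256 after partial discectomy and 263 in sham in the authors' deposited table. In the authors' deposited table the ratio was 0.974 (95% limits 0.481 to 1.97, adjusted p = 0.994). Libraries of both groups lay between 92.9 and 438, and the groups overlapped. Matn3 (chromosome 12, 8947929 to 8972028, plus strand), a matrilin of cartilage, averaged 8.05 after partial discectomy and 12.3 in sham, which is a ratio of 0.656 with the widest limits of the set, 0.211 to 2.03 (adjusted p = 0.798) by the authors' deposited table. A sham library stood at 25.9, which is 70.4% of the sham total and 107% of the partial discectomy total. The other sham libraries lay between 1.30 and 9.59 and averaged 5.44. The 3 partial discectomy libraries lay between 1.75 and 16.9, so the sign of the difference rests on that sham library: without it the ratio was 1.48.

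Relatives of the matrix genes were not called either. The list of 15 relatives had 13 in the table, of which 2 had an unadjusted p under 0.05, both with ratios below 1, where 14.2% of all genes passed in either direction and 3.31% with a ratio below 1. Ratios were above 1 for 6 of the 13. Thbs4, a thrombospondin related to Comp and made in tendon and muscle, averaged 59.6 after partial discectomy and 162 in sham in the authors' deposited table (ratio 0.368, 95% limits 0.201 to 0.673, adjusted p = 0.139). Its groups did not overlap in any arrangement that gives the deposited summaries, as for 13.6% of all genes, and its highest sham library was at 275. Markers of muscle had ratios below 1 in the same comparison, as given above, and their part in the value of Thbs4 was not tested. Hapln3, a link protein found outside cartilage too, averaged 2.73 after partial discectomy and 4.02 in sham (ratio 0.680, adjusted p = 0.288) per the authors' deposited table. The proteoglycan Vcan, related to aggrecan, had a ratio of 0.830 (0.557 to 1.24) by the authors' deposited table. The matrilins Matn2 and Matn4 had ratios of 0.738 (0.425 to 1.28) and 1.22 (0.692 to 2.16), per the authors' deposited table. Bglap, the osteoblast product osteocalcin and a vitamin K dependent protein like Ucma, had the highest mean of the list, 372 after partial discectomy and 220 in sham, and by the authors' deposited table its ratio was 1.69 (0.394 to 7.27, adjusted p = 0.571).

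Cnmd and Ucma were low in both groups. Cnmd (chromosome 14, 79637690 to 79662170, minus strand), an inhibitor of blood vessel growth also called chondromodulin, averaged 5.36 after partial discectomy and 6.05 in sham in the authors' deposited table. In the authors' deposited table the ratio was 0.886 (95% limits 0.352 to 2.23, adjusted p = 0.906). The highest library, at 12.2, had to be a sham library and held 67.1% of the sham total. The other sham libraries lay between 1.46 and 4.52 and averaged 2.99, while the partial discectomy libraries lay between 2.44 and 8.96. Tnmd, its relative in tendon, averaged 1.46 after partial discectomy and 1.42 in sham by the authors' deposited table.

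Ucma (chromosome 2, 4976122 to 4985748, plus strand), a secreted protein with vitamin K dependent residues, averaged 1.51 after partial discectomy and 1.24 in sham in the authors' deposited table, close to the floor. Its ratio was 1.22 in the authors' deposited table (95% limits 0.858 to 1.72, adjusted p = 0.639). With the floor subtracted the means were 0.511 and 0.243 in the same order, a ratio of 2.10. Its highest library, at 1.96, belonged to partial discectomy, and without it the ratio with the floor included was 1.03. The groups overlapped. Mgp, another vitamin K dependent matrix protein, had means of 158 after partial discectomy and 141 in sham (ratio 1.12, 95% limits 0.708 to 1.76) in the authors' deposited table.

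For 5 of the 9 genes the highest library had to be a sham library, against 21.9% of all genes. It was a partial discectomy library for 1 gene, Ucma, against 44.6% of all genes, and its group was not fixed for Acan, Hapln1 and Comp, as for 33.5% of all genes. The 5 genes were Sox9, Sox5, Sox6, Matn3 and Cnmd, all with ratios below 1. Over all genes 5070 had their highest library in sham, all with ratios below 1, out of 8635 with such ratios. The count of 5 is therefore not separate from the count of ratios below 1. Without the highest library the ratio was 1.15 for Sox9, 1.00 for Sox6, 1.48 for Matn3 and 1.79 for Cnmd, so 4 of these 5 genes no longer lay below 1. Over all genes with a ratio below 1 and their highest library in sham, 18.1% did so. Sox5 stayed below 1. Taking the highest library out of one group lowers that group's mean by construction, so these ratios show how far 1 library decides the sign and are no estimate of the difference. The authors' deposited table does not name the library, and it may differ between genes.

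**Figure D3:**
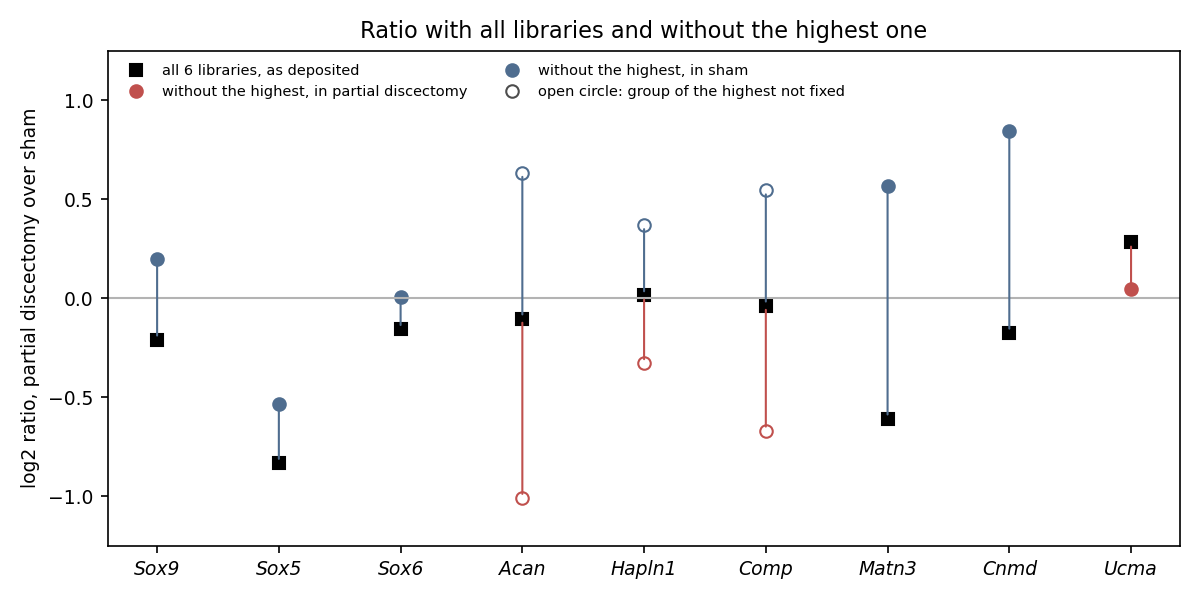
log2 ratio of partial discectomy over sham for the 9 genes with all 6 libraries (squares) and without the highest library (circles), coloured by the group that loses it. Open circles mark Acan, Hapln1 and Comp, where either group could hold the highest library, and Sox5 is the only gene with a ratio below 1 and a fixed group whose circle stays below 0.

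The wider set of cartilage genes showed no call. The 7 lists of cartilage genes held 124 different genes, of which 112 had a row. By the authors' deposited adjusted p 0 were called, and at an unadjusted p under 0.05 there were 5 with a ratio above 1 and 5 below, or 4.46% each, against 10.9% and 3.31% of all genes. The cartilage collagens, which include direct targets of Sox9, had ratios above 1 for 6 of 7 genes and below 1 for 1. Over all genes 37.3% had ratios below 1. For the 6 the group of the highest library is not fixed. Without it, if it was a partial discectomy library, ratios were 0.648 for Col9a1, 0.872 for Col9a2, 0.799 for Col9a3 and 0.891 for Col11a1. They were then 1.02 for Col2a1 and 1.26 for Col11a2. If it was a sham library, the 6 ratios ran from 2.05 to 3.08. Col2a1, the main collagen of cartilage, averaged 3181 after partial discectomy and 2305 in sham, for a ratio of 1.38 in the authors' deposited table (0.437 to 4.36, adjusted p = 0.682), and Col11a1 had 1.20. The median log2 ratio of the collagen list was 0.27, against -0.16 for Sox factors and non-collagen matrix. Whether the lists differ was not tested. Of 18 other matrix genes 14 had ratios above 1 and 4 had ratios below 1. Among them was Mia, a secreted chondrocyte protein near the floor, at 1.40 after partial discectomy and 1.11 in sham in the authors' deposited table (unadjusted p = 0.0461, adjusted p = 0.339). The small proteoglycans Fmod and Bgn had ratios of 1.36 and 1.09 by the authors' deposited table.

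Enzymes that cut these matrix proteins, and their inhibitors, held the smallest adjusted p of the 7 lists, and none was called. Of 14 genes 3 had an unadjusted p under 0.05, against 14.2% of all genes. Of these, 1 had a ratio above 1 and 2 had ratios below 1, where 10.9% and 3.31% of all genes did so. Timp3, which inhibits aggrecanases and stays bound to the matrix, averaged 256 after partial discectomy and 579 in sham, for a ratio of 0.442 in the authors' deposited table (95% limits 0.264 to 0.743, adjusted p = 0.100). Adamts12, a protease that cleaves Comp, averaged 26.7 after partial discectomy and 45.1 in sham by the authors' deposited table (ratio 0.593, 0.433 to 0.811, adjusted p = 0.106). For both genes the groups could not overlap, as for 13.6% of all genes. The gene with a ratio above 1 was the aggrecanase Adamts4, which averaged 10.4 after partial discectomy and 7.08 in sham. Its ratio was 1.47 in the authors' deposited table (0.954 to 2.26, unadjusted p = 0.0486, adjusted p = 0.346). Its 95% limits include 1 although the unadjusted p is under 0.05, so the 2 criteria differ here. The aggrecanase Adamts5 had a ratio of 1.04 (0.793 to 1.36) in the authors' deposited table. Mmp13, a collagenase of hypertrophic chondrocytes and osteoblasts, had a ratio of 1.74 by the authors' deposited table (adjusted p = 0.404).

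Among regulators of chondrocytes, 27 had a row and 2 had an unadjusted p under 0.05, a smaller share than the 14.2% of all genes. The ratio was above 1 for 1 of them and below 1 for 1, where 10.9% and 3.31% of all genes did so. Pthlh, the hormone that delays chondrocyte maturation, averaged 2.28 after partial discectomy and 4.94 in sham in the authors' deposited table (ratio 0.462, 0.241 to 0.884, adjusted p = 0.304). Lef1, a factor of Wnt signalling, stood at 14.6 and 7.97 in the same order in the authors' deposited table (ratio 1.83, 1.17 to 2.88, adjusted p = 0.181). Lef1 is also expressed in lymphoid cells. Runx2 and Trps1, factors of chondrocyte and bone development, had ratios of 0.877 and 0.846 by the authors' deposited table.

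**Figure D4:**
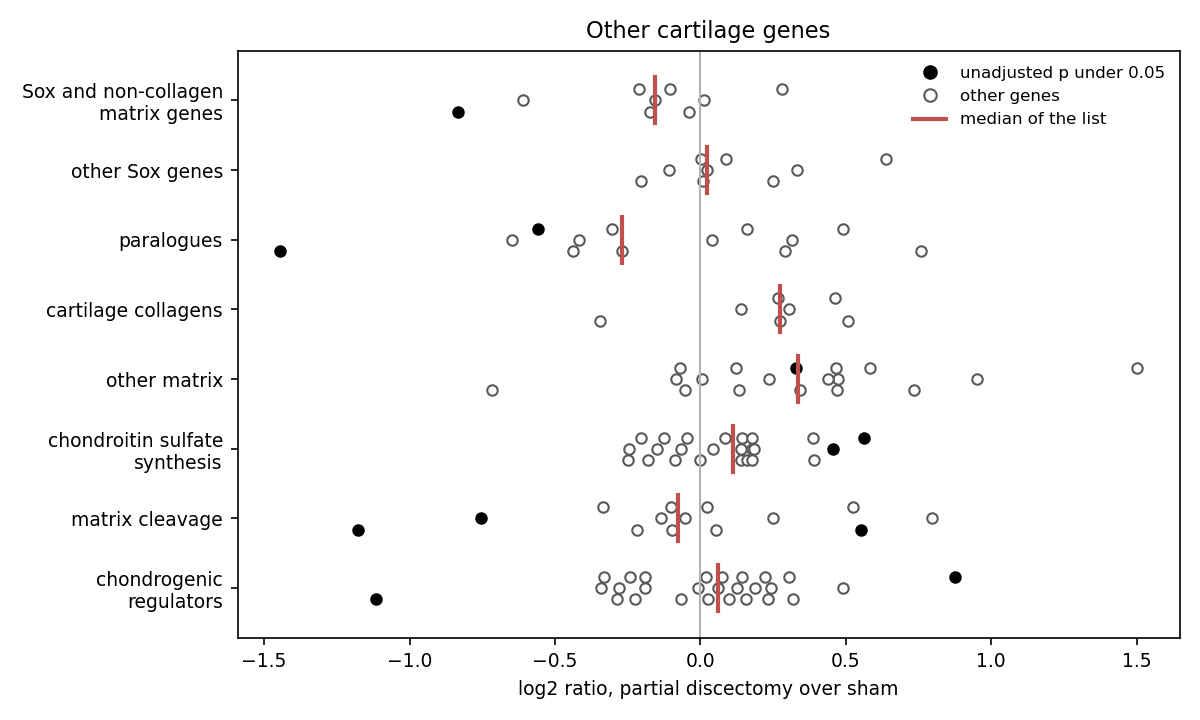
log2 ratio of partial discectomy over sham for the 9 genes and for each gene of 7 lists of related genes, not all of them cartilage genes (circles), from the authors' deposited table, with list medians (bars). Filled circles, with an unadjusted p under 0.05, are 1 of the 9 genes, Sox5, and 10 genes of the lists, and no gene shown was called by the adjusted p.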

How the data were processed

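RNA of 3 partial discectomy and 3 sham libraries was sequenced. The submitters' processing notes name STAR 2.6.1d and mm10. How reads were counted, filtered, normalized and tested is not given in the sources used here. The authors deposited 1 table of 23170 genes whose signal columns hold normalized group means, and the sum, highest value and geometric mean over the 6 libraries. It also holds the deposited ratio, its log2 value, a signed fold change with 95% limits (entered as a score, turned here into ratios) and the deposited p-value with its adjustment. It gives gene positions too, from which the coordinates were taken. A second file held gene positions and symbols only, and its symbols were compared with those of the table. Library depth is unknown, and no interval that needs it is given.

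Bounds on single libraries were computed from the mean of each group, the highest value and the geometric mean, assuming no value under the floor of 1, with Python 3.11.15 and NumPy 2.4.6. The method was tested on simulated data. Deposited ends lie 1 base beyond those of GENCODE M21 and were reduced by 1. The members and lists were chosen with earlier results of these data known. Named genes are the members, fixed relatives, list genes at an unadjusted p under 0.05, and the 2 genes of each list with the highest mean. With 2 group means, likeness of pattern to other genes was not computed.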

Additional observations from a re-analysis of the deposited data

How the results depend on the processing

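No paired analysis was possible because values of single libraries were not analysed here, and for the same reason no named library could be left out. The deposited p-values were readjusted over 15911 genes whose mean exceeded the floor by 1 or more, over 10286 exceeding it by 5 or more and over 15397 protein-coding genes, and 0 of the 9 genes was called each time. The adjusted p of Sox5 ran from 0.147 to 0.186. Called by the 95% limits instead, Sox5 (log2 ratio -0.83) lay below 1, as did 3.59% of all genes. At an unadjusted p under 0.05 the counts, 0 by the adjusted p, were 1 among the 9 genes, 2 relatives, 1 other matrix gene, 2 of chondroitin sulfate synthesis, 3 of matrix cleavage and 2 regulators. The summed signal was higher after partial discectomy by a log2 ratio of 0.13. Hapln1 had a log2 ratio of -0.066 set against the median of all genes and -0.12 set against those sums, and the other genes kept their sign. Without the highest library, in sham, log2 ratios were 0.20 for Sox9, 0.00 (0.0044) for Sox6, 0.56 for Matn3, 0.84 for Cnmd and -0.54 for Sox5. For Acan they were -1.01 with the library taken from partial discectomy and 0.63 from sham, for Comp -0.67 and 0.55, and for Hapln1 -0.33 and 0.37.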
